A study of Mus musculus with 2 samples.

Results

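The interleukin-1 (IL-1) family genes described here are 10 genes, taken by symbol, of 32285 genes in the count tables: the ligands *Il1a*, *Il1b*, *Il1f9* and *Il33*, the receptor antagonist *Il1rn*, the receptors *Il1r1*, *Il1rap*, *Il1rl1* and *Il1r2*, and the inflammasome sensor *Nlrp3*. They were read in 11362 single cells of injured mouse quadriceps, 6735 from day 1 and 4627 from day 3 after intramuscular injection of BaCl2, a salt that kills myofibers and starts a sterile inflammation. Each day was 1 library from pooled quadriceps of 5 male wild-type (WT) mice, 14 weeks old, and no allele, transgene or drug separated the days. Both libraries hold mononuclear cells that were sorted on light scatter and cryopreserved before droplet capture, so myofibers are not represented and no uninjured muscle is part of the comparison. The day 1 table summed to 74852240 unique molecular identifiers (UMIs, 1 per captured RNA molecule) and the day 3 table to 102565783. No kept cell of day 1 shared its barcode sequence with a kept cell of day 3 (0 shared). The barcode lists of the libraries have only 77142 sequences in common. Most barcodes could therefore not have matched, and nothing is read from this.

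IL-1α and IL-1β are ligands of the receptor IL-1R1, which signals through MyD88 and NF-κB once the accessory chain IL-1RAcP, encoded by *Il1rap*, has joined it. IL-1β is made as an inactive precursor that caspase-1 cuts inside inflammasomes such as the one built on NLRP3, whereas IL-1α and IL-33 are alarmins that leave dying cells. The antagonist encoded by *Il1rn* occupies IL-1R1 without signalling, the decoy receptor IL-1R2 binds the ligands without signalling, and IL-33 uses ST2, encoded by *Il1rl1*, with the same accessory chain. In injured skeletal muscle, IL-1β is known mainly as a product of infiltrating neutrophils and monocytes/macrophages, and IL-33 as a product of fibro/adipogenic progenitors (FAPs), the mesenchymal stromal cells between the fibers. *Il1f9* encodes IL-36γ and is listed as *Il36g* in RefSeq.

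The family lies in a few gene clusters of the mouse genome (GRCm38). *Il1a* (chr2:129299610-129309972) and *Il1b* (chr2:129364570-129371139) are neighbours on the minus strand of chromosome 2, which also carries *Il1f9* (chr2:24186476-24193568) and *Il1rn* (chr2:24336853-24351494). The receptors *Il1r2* (chr1:40074079-40125231), *Il1r1* (chr1:40225080-40317257) and *Il1rl1* (chr1:40429570-40465415) follow each other on chromosome 1. *Nlrp3* is at chr11:59541568-59566956, *Il1rap* at chr16:26581704-26730117 and *Il33* at chr19:29925114-29960718. The 250 bases before the transcription start are shown for *Il1a* and *Il1b*, whose levels differed most between the days in monocyte/macrophage-like cells, and for *Il1rl1*, with both of its start sites, the member lower on day 3 in FAP-like cells at a level far above what other cells' RNA could give, from RefSeq on GRCm38.p6, read 5′ to 3′ on the strand of the gene. Capitals mark matches, on either strand, to the letters searched. These were GGGA and CC with any 4 bases between them for NF-kappaB, in 17.6% of 32851 mouse promoter windows of this length, TGANTCA for AP-1 in 6.75%, TTGCNNAA for C/EBP in 9.56%, TATAAA for the TATA box in 12.4% and GATAAG for GATA factors in 6.55%.
Il1a, chr2:129309973-129310222, minus strand: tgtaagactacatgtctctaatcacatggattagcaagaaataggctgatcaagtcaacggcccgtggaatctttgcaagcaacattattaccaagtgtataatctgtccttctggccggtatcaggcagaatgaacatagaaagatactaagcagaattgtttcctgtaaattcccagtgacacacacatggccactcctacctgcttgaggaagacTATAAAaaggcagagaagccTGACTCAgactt
Il1b, chr2:129371140-129371389, minus strand: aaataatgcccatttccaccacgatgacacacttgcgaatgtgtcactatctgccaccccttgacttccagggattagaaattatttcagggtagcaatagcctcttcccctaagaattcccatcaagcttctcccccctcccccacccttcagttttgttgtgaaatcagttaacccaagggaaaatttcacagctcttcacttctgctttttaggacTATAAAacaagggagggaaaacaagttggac
Il1rl1 distal start, chr1:40429320-40429569, plus strand: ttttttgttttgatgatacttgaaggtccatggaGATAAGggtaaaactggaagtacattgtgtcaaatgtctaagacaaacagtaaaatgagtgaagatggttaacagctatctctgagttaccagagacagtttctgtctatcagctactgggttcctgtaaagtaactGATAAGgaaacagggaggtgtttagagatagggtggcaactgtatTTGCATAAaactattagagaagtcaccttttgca
Il1rl1 proximal start, chr1:40439379-40439628, plus strand: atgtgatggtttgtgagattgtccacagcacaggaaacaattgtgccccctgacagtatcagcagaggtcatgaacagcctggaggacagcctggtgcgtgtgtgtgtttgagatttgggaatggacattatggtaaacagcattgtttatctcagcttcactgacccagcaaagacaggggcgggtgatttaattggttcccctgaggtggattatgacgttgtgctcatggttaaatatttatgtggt
*Il1a* and *Il1b* both held TATAAA, from 32 and 31 bases before the start, and *Il1a* held TGACTCA from 12 bases before it. The distal window of *Il1rl1* held GATAAG at 216 and 79 bases and TTGCATAA at 34 bases before the start, and no letters were matched in its proximal window. The distal start is known to be used in mast cells and other blood cells and the proximal one in fibroblasts. These libraries read the 3′ end of each RNA, so a UMI does not show which start, or which splice form, it came from.

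Cells were clustered on genes other than the members and the cell type markers, and each cluster was named from its markers. Neutrophil-like cells numbered 2070 on day 1 and 253 on day 3, with medians of 2155 and 1620 UMIs per cell, and 13 of 14 neutrophil markers were at 20 UMIs per 1000000 (CPM) or more on both days. Monocyte/macrophage-like cells numbered 3410 and 2812 with medians of 11139 and 13833 UMIs, and all 13 of their markers reached 20 CPM on both days. FAP-like cells, 648 and 822, had medians of 27829 and 26159.5 UMIs and all 10 of their markers above that level. The cluster called dendritic cell (DC)-like, 510 and 491 cells, was mixed: only 4 of its 10 markers on day 1 and 5 on day 3 reached 20 CPM, the summed level of monocyte/macrophage markers (4299 and 5579 CPM) exceeded that of DC markers (453 and 401 CPM), and *Klrd1* and *Cd7*, known from NK and T cells, were among its leading genes. Endothelial-like cells (83 on day 1) and satellite cell/myoblast-like cells (201 on day 3) were described on 1 day each, because the other day had 27 and 4. That makes 10 groups of a cell type and day with at least 50 cells. The endothelial-like cells of day 1 were mixed as well. Their neutrophil markers (4143 CPM) exceeded their endothelial markers (2647 CPM), and erythroid markers summed to 1769 CPM. A lone cluster of 31 cells stayed unnamed.

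A level is given below as the UMIs of a gene per 1000000 UMIs of a group of cells (CPM), and a share as the percentage of cells with at least 1 UMI. Confidence intervals (CI) are exact and cover counting error only: with 1 library per day neither the mice nor the libraries are replicated, and no test or p-value is given. Some values moved with the groups and touch every comparison of days. The libraries were read with different lists of barcodes (737280 and 6794880), although the labels name the same kit for both. The published methods name alternative chip kits without saying which library used which. The lists have only 77142 barcode sequences in common, which points to a different chemistry on each day. Neither the labels nor the methods state such a difference, and its part cannot be told apart from the day. The limit of 7.5% mitochondrial UMIs removed 7.02% of the day 1 barcodes and 30.3% of those of day 3. Of the 253 day 3 neutrophil-like cells, 10 were scored as likely doublets (droplets with more than 1 cell) and held 33.5% of the UMIs of that group, and monocyte/macrophage markers summed to 2636 CPM there against 382 on day 1. In FAP-like cells, neutrophil markers summed to 789.6 CPM on day 1 and 125 on day 3, and 14.0% and 9.49% of cells were scored as likely doublets. FAP markers in neutrophil-like cells summed to 417 CPM on day 1 and 2471 on day 3, and at most 2.03% and 35.3% of the UMIs of these cells were estimated to be RNA of other cells. In day 1 endothelial-like cells that estimate was at most 33.5%, and the 16.9% of cells scored as likely doublets held 38.9% of the UMIs. In monocyte/macrophage-like cells the 14 neutrophil markers summed to 2526 CPM on day 1 and 564 on day 3, with 11 and 6 of them at 20 CPM or more and *S100a8* the most abundant on both days (971 and 294 CPM), beside sums of 96018 and 31795 CPM in neutrophil-like cells. In DC-like cells they summed to 1544 and 96.8 CPM, with 10 and 1 at 20 CPM or more and *S100a9* (487 CPM) and *Hcar2* (20.3 CPM) the most abundant, and T/NK cell markers summed to 11.5 and 134 CPM. The part of these in the differences between days was not tested, and levels without the likely doublets are given where they matter.

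*Il1b* was the member with the most UMIs and was highest in myeloid cells. It made up 17643 (95% CI 17528 to 17759) CPM of the RNA of neutrophil-like cells and 8091 (95% CI 8063 to 8119) CPM of monocyte/macrophage-like cells on day 1. On day 3 the levels were 10062 (95% CI 9824 to 10303) and 305 (95% CI 300.1 to 310.4) CPM. Neutrophil-like cells therefore held a high level on both days, while the level of monocyte/macrophage-like cells, whose neutrophil markers were also lower on day 3, was 26.5-fold lower on day 3, a log2 ratio of -4.73 (95% CI -4.75 to -4.70) that ranged from -5.24 to -4.18 over the alternative ways of processing. In DC-like cells the level was 6562 (95% CI 6499.9 to 6625) CPM on day 1 and 1048 (95% CI 1021 to 1076) on day 3, a log2 ratio of -2.65 (95% CI -2.69 to -2.61) that ranged from -2.89 to -1.06, beside the lower neutrophil markers of day 3 in these cells. The ratio in neutrophil-like cells was -0.81 (95% CI -0.85 to -0.77), and without the likely doublets their levels were 17835 CPM on day 1 and 14955 on day 3. When the libraries were clustered separately, the sign of the neutrophil ratio turned (0.31), so for these cells no difference between the days is read.

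Shares of cells followed the same order. Of the neutrophil-like cells, 99.3% (95% CI 98.9 to 99.6) had an *Il1b* UMI on day 1 and 93.3% (95% CI 89.5 to 96.0) on day 3, and of the monocyte/macrophage-like cells 92.3% (95% CI 91.3 to 93.1) and 36.6% (95% CI 34.8 to 38.4). After every cell was thinned to 1000 UMIs, which takes out the difference in depth, the shares were 98.3% and 90.4% in neutrophil-like and 76.3% and 17.1% in monocyte/macrophage-like cells. For scale, satellite cell/myoblast-like cells of day 3, which are not a known source, had a UMI in 13.4% of cells at a median of 44087 UMIs and in 0.990% after thinning. The median day 1 cell carried 34 *Il1b* UMIs among neutrophil-like and 50 among the deeper monocyte/macrophage-like cells, and single cells reached 502 and 639. On day 3 the median monocyte/macrophage-like cell carried 0, and the 282 cells with the most held 74.7% of all *Il1b* UMIs of that cell type, against 35.7% in the top 10% on day 1.

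**Figure D1:**
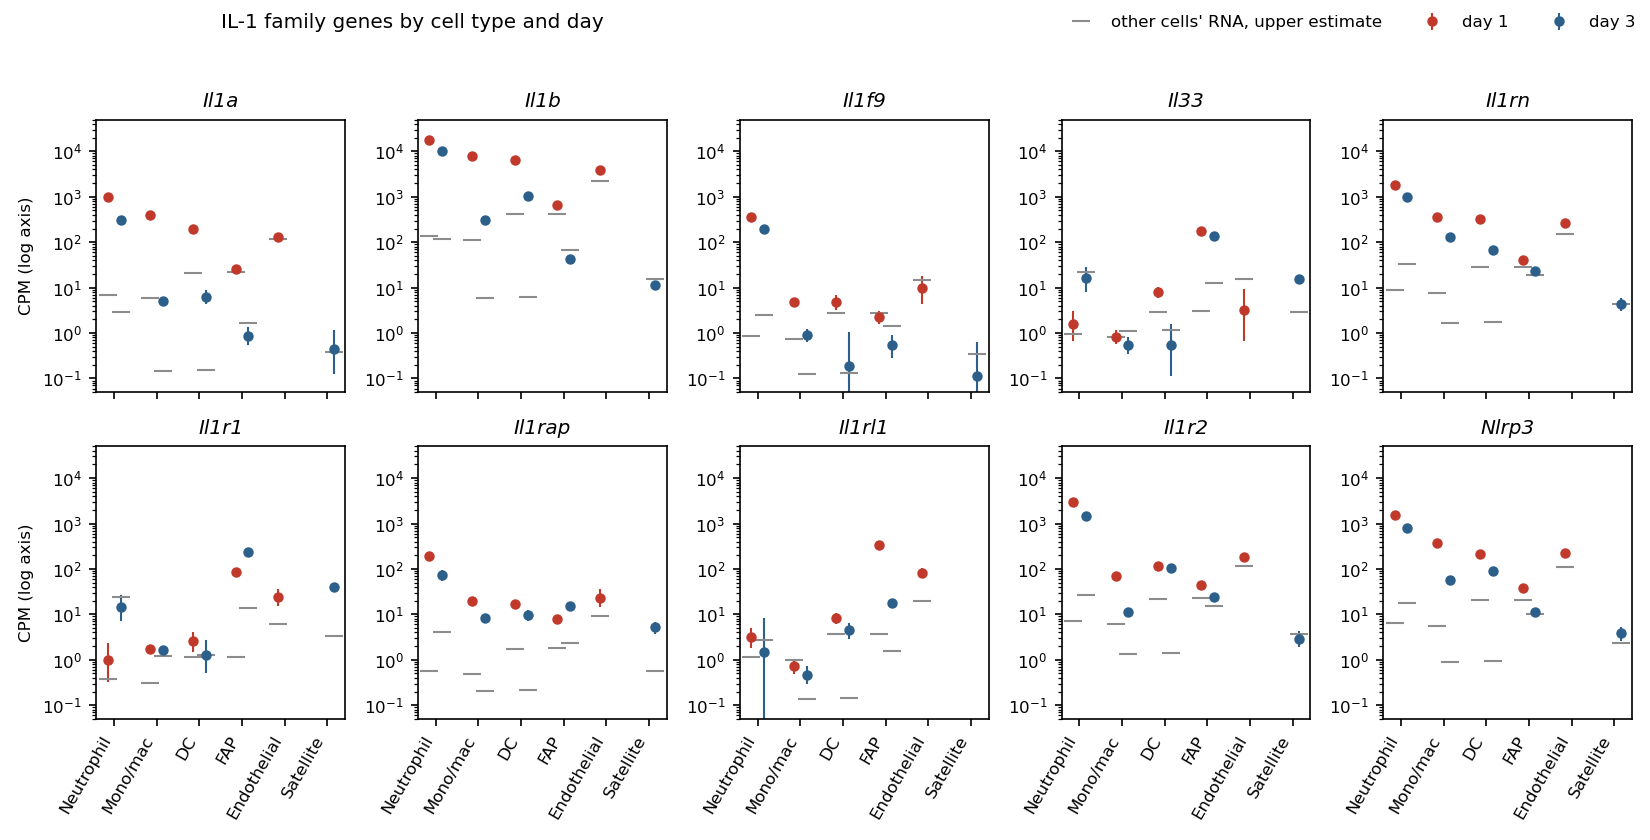
Level of each of the 10 members (CPM, log10 axis) in each cell type and day with at least 50 cells; points are the cells of 1 library (day 1 red, day 3 blue), bars 95% exact Poisson intervals (counting error), and grey lines the upper estimate for other cells' RNA. *Il1b* runs from 17643 CPM in day 1 neutrophil-like cells to 11.5 in satellite cell/myoblast-like cells, whereas *Il33*, *Il1r1* and *Il1rl1* are highest in FAP-like cells.

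Which monocytes/macrophages held *Il1b* was read in the clusters, named here by their first leading gene. The days were held by different clusters, *Serpinb2*, *Ppbp*, *Cd163* and *Ifitm6* on day 1 and *Fcrls*, *Gpnmb*, *Ifi213* and *Ear2* on day 3, so the day ratio of the cell type compares different clusters. By the mean z-score that had been planned for naming, the *Ifitm6* cluster was neutrophil-like and the *Serpinb2* cluster unnamed, which would leave the *Ppbp* and *Cd163* clusters as the monocyte/macrophage-like clusters of day 1. On day 1 the *Serpinb2* cluster had 11950.3 CPM and the *Ppbp* cluster 10396, and the *Ifitm6* and *Cd163* clusters had 5129.8 and 3312. The day 1 clusters thus all lay above those of day 3, where the *Ear2* cluster, which shares *Ifitm6* and *Plac8* among its leading genes with monocytes, had 1405 CPM, the interferon-response cluster led by *Ifi213* had 527, the *Fcrls* cluster 198 and the *Gpnmb* cluster 116. Within neutrophil-like cells, the *Il23a* cluster exceeded the *Retnlg* cluster on both days, at 20042 against 14084 CPM on day 1 and 15282 against 7247 on day 3. On day 3 the 138 *Retnlg* cells held 440610 UMIs and the 115 *Il23a* cells 237602, at medians of 1607.5 and 1645 per cell. The CPM of the day 3 *Retnlg* cells therefore rests more on deep cells, and the size of that difference is not read. Cells with an *Il1b* UMI carried a mean of 32.4 in the *Il23a* and 25.8 in the *Retnlg* cluster, and thinned shares were 94.8% and 86.7%. *Il1b* and *Il1a* are themselves among the leading genes of the *Serpinb2* cluster, so these levels describe the clusters and are not tested between them.

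**Figure D2:**
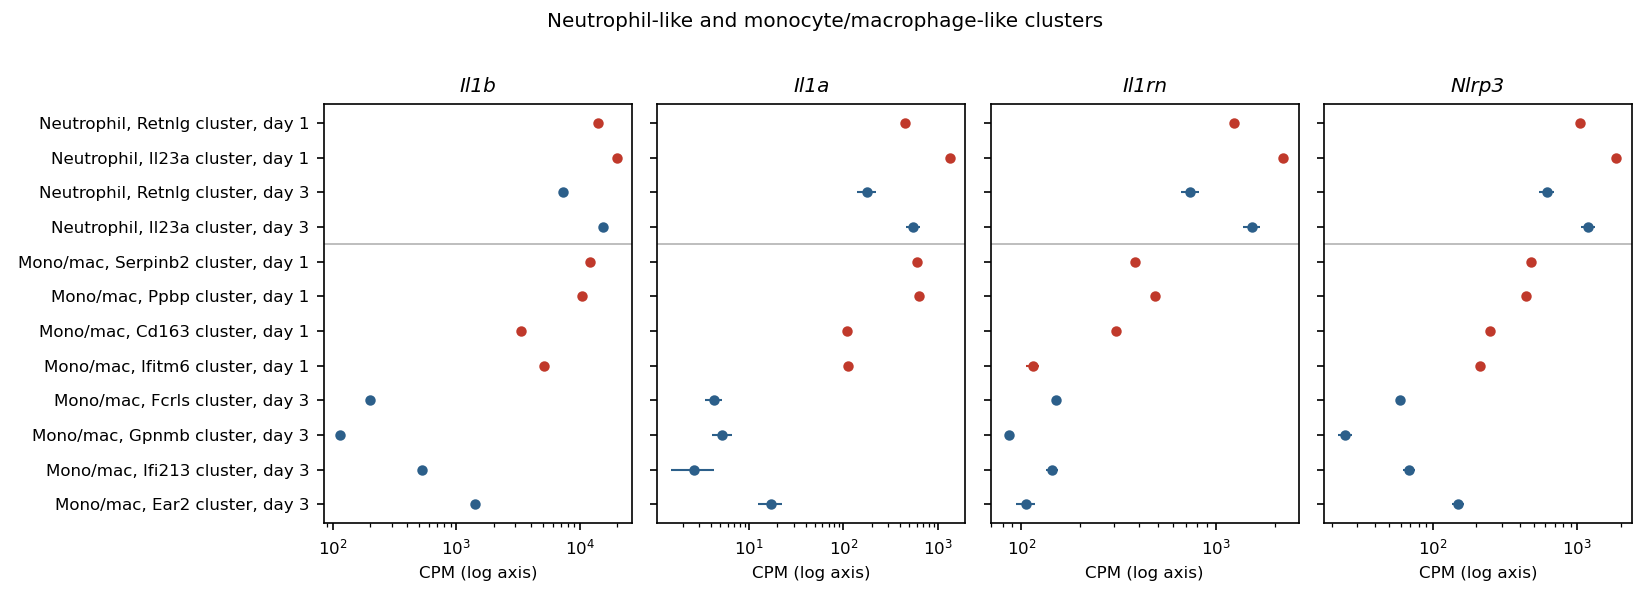
Levels of *Il1b*, *Il1a*, *Il1rn* and *Nlrp3* (CPM, log10 axis) in each neutrophil-like and monocyte/macrophage-like cluster, named by its first leading gene, on the day or days that hold it (day 1 red, day 3 blue), with 95% exact Poisson intervals. The 4 day 1 monocyte/macrophage-like clusters lie between 3312 and 11950.3 CPM of *Il1b* and the 4 day 3 clusters between 116 and 1405 CPM.

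*Il1a*, the alarmin of the pair, was lower on day 3 in all myeloid types. Neutrophil-like cells had 980.2 (95% CI 953 to 1008) CPM on day 1 and 308 (95% CI 268 to 353) on day 3 (463 without the likely doublets), and monocyte/macrophage-like cells 398 (95% CI 391 to 404) and 5.18 (95% CI 4.53 to 5.89). The latter is a 76.6-fold lower level and a log2 ratio of -6.26 (95% CI -6.46 to -6.08), the largest of any member in any cell type, and it ranged from -6.71 to -5.80 over the alternatives, while that of neutrophil-like cells, -1.67, ranged from -1.97 to -0.46. The share of monocyte/macrophage-like cells with a UMI was 42.1% (95% CI 40.4 to 43.8) on day 1, against 4.41% (95% CI 3.68 to 5.24) on day 3. In DC-like cells the level was 191 CPM on day 1 and 6.28 on day 3 (34 UMIs in 17 cells), with a log2 ratio of -4.91 that ranged from -5.79 to -1.31 over the alternatives. Per 100 *Il1b* UMIs there were 4.91 (95% CI 4.84 to 4.99) *Il1a* UMIs in monocyte/macrophage-like cells on day 1 and, on day 3, 1.70 (95% CI 1.48 to 1.93), and 5.56 (95% CI 5.40 to 5.72) and 3.06 (95% CI 2.66 to 3.52) in neutrophil-like cells, so the balance between the ligands also differed between the days. On day 1 the *Ppbp* and *Serpinb2* clusters had 624 and 603 CPM and the *Ifitm6* and *Cd163* clusters 111 and 110.1. Of the 3410 day 1 monocyte/macrophage-like cells, 1418 had UMIs of both ligands, 1728 of *Il1b* alone and 18 of *Il1a* alone.

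Levels of both ligands outside the myeloid types lay close to what free RNA could give. In day 1 FAP-like cells *Il1b* was at 657 CPM, against an upper estimate of 424 from RNA of other cells in the droplets, 65 of the 648 cells held 84.5% of its UMIs, and 230.0 CPM remained without the likely doublets. The day 3 level of 43.2 CPM lay below the estimate of 67.3. Day 1 endothelial-like cells had 3944 CPM, with an estimate of 2215 and neutrophil markers summing to 4143 CPM. No *Il1b* or *Il1a* expression of stromal or endothelial cells is read from these values.

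*Il1f9* was nearly confined to neutrophil-like cells, which held 86.6% of its UMIs on day 1 and 70.3% on day 3. Its level there was 351 (95% CI 335 to 368) CPM on day 1 and 192 (95% CI 160.1 to 228) on day 3, with a UMI in 31.5% and 22.5% of cells, and 398 CPM in the *Il23a* cluster against 282 in the *Retnlg* cluster on day 1. *Il1f9* is itself among the leading genes of the *Il23a* cluster. On day 3 the levels were 223 (95% CI 167 to 292) and 175 (95% CI 138 to 218) CPM, whose intervals overlap. The shares of cells were 19.1% and 25.4%, so no order of these clusters is read on that day. Without the likely doublets the day 3 level of neutrophil-like cells was 288 CPM, and their day ratio of -0.87 turned sign (0.37) under separate clustering. Among monocyte/macrophage-like cells 2.49% and 0.782% had a UMI. Their level of 4.90 CPM on day 1 was 0.665 without the likely doublets, next to 0.739 on day 3, and the sign of the day ratio turned with their removal. DC-like and FAP-like cells had at most 4.77 CPM.

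*Il33* was the ligand of the stroma. FAP-like cells held 97.2% of its UMIs on day 1 and 94.9% on day 3, at 176 (95% CI 170.5 to 183) and 139 (95% CI 134 to 144) CPM. The day ratio of -0.35 (95% CI -0.42 to -0.28) stayed under 2-fold, and it ranged from -1.16 to 0.10 over the alternatives, so no difference between days is read. A UMI was found in 61.4% (95% CI 57.5 to 65.2) of FAP-like cells on day 1 and, on day 3, 68.6% (95% CI 65.3 to 71.8), against 0.557% and 0.640% of monocyte/macrophage-like cells. Satellite cell/myoblast-like cells of day 3 had 15.7 (95% CI 13.2 to 18.6) CPM and a UMI in 22.4% of cells, above the estimate of 2.97 CPM from other cells' RNA. The 52 UMIs in day 1 DC-like cells came from 5 cells, 1 of which held 48.

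The antagonist gene *Il1rn* was expressed by the same cell types as *Il1b*, but in monocyte/macrophage-like cells its level differed less between the days. Neutrophil-like cells had 1802 (95% CI 1765 to 1839) CPM on day 1 and 1010.0 (95% CI 936 to 1089) on day 3. Without the likely doublets the latter was 1416 CPM, and the day ratio of -0.83 was 0.32 with the libraries clustered separately. Monocyte/macrophage-like cells had 354 (95% CI 349 to 360.3) and 128 (95% CI 124 to 131) CPM, a log2 ratio of -1.47 (95% CI -1.52 to -1.43) beside the -4.73 of *Il1b*. DC-like cells had 331 and 67.0 CPM, a log2 ratio of -2.30 (95% CI -2.47 to -2.14) that ranged from -2.54 to -1.10 over the alternatives. A UMI of *Il1rn* was found in 60.3% of monocyte/macrophage-like cells on day 1 and 47.4% on day 3, and in 71.0% and 61.7% of neutrophil-like cells.

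Because each molecule is tagged once, at its 3′ end, counts do not grow with transcript length, and the balance of antagonist to ligand can be followed as *Il1rn* UMIs per 100 *Il1b* UMIs. In monocyte/macrophage-like cells there were 4.38 (95% CI 4.31 to 4.45) on day 1, against 41.8 (95% CI 40.5 to 43.1) on day 3. In neutrophil-like cells the values were 10.2 (95% CI 10.00 to 10.4) and 10.0 (95% CI 9.27 to 10.9), whose intervals overlap, and in DC-like cells 5.04 (95% CI 4.83 to 5.27) and 6.40 (95% CI 5.74 to 7.11). The balance thus differed between the days mostly in monocytes/macrophages. Across their clusters it ran on day 1 from 2.22 in the *Ifitm6* cluster through 3.20 (*Serpinb2*) and 4.69 (*Ppbp*) to 9.27 in the *Cd163* cluster. On day 3 it was 7.49 in the *Ear2* cluster, 27.2 in the *Ifi213* cluster, 75.1 (95% CI 69.6 to 81.0) in the *Gpnmb* cluster and 76.0 (95% CI 72.6 to 79.6) in the *Fcrls* cluster, the last pair of which overlap. The *Ear2* cluster of day 3 therefore lay within the range of the day 1 clusters, also between the *Ppbp* and *Cd163* clusters alone. The ratio moved mainly with the denominator: *Il1rn* was at 151 CPM in the *Fcrls* and 86.8 in the *Gpnmb* cluster, within the 114 to 487 CPM of the day 1 clusters for the former and below it for the latter. Among day 3 monocyte/macrophage-like cells, 851 had *Il1rn* without an *Il1b* UMI, 546 the reverse and 482 both, while on day 1 these numbers were 131, 1221 and 1925.

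**Figure D3:**
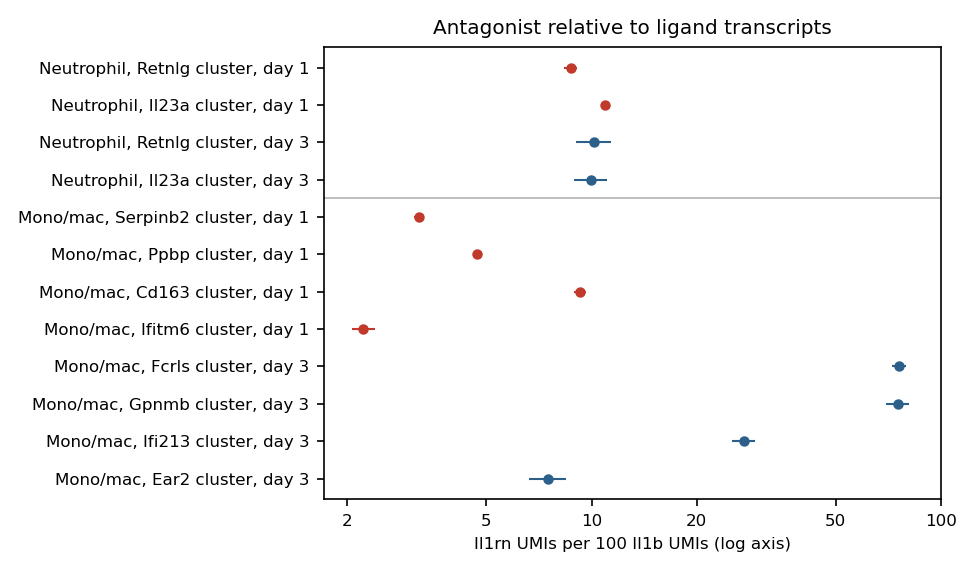
*Il1rn* UMIs per 100 *Il1b* UMIs (log10 axis) in each neutrophil-like and monocyte/macrophage-like cluster, by day (day 1 red, day 3 blue), with 95% exact intervals of the ratio of counts. The neutrophil-like clusters stand between 8.71 and 10.9 on both days, while the monocyte/macrophage-like clusters stand between 2.22 and 9.27 on day 1 and between 7.49 and 76.0 on day 3.

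The signalling receptor *Il1r1* was a gene of the stroma and was higher on day 3. FAP-like cells had 85.3 (95% CI 81.2 to 89.6) CPM on day 1 and 236 (95% CI 229.8 to 242) on day 3, 2.76-fold more, with a log2 ratio of 1.47 (95% CI 1.39 to 1.55) that ranged from 1.02 to 2.07 over the alternatives. A UMI was found in 77.5% (95% CI 74.1 to 80.6) of these cells on day 1 and, on day 3, 92.7% (95% CI 90.7 to 94.4), and in 8.43% and 21.9% after thinning to 1000 UMIs. The days were held by different FAP-like clusters, led by *Il1rl1* and *Cxcl5* on day 1 and by *Sfrp2* and *Aspn* on day 3. Satellite cell/myoblast-like cells of day 3 followed with 40.7 (95% CI 36.6 to 45.1) CPM and a UMI in 68.7% of cells, and day 1 endothelial-like cells with 24.6 (95% CI 15.6 to 36.9) CPM, whose intervals overlap. In monocyte/macrophage-like cells the level was 1.69 CPM on day 1 and 1.64 on day 3, with a UMI in 1.64% and 1.71% of cells at a median depth of 11139 and 13833 UMIs, and 5 UMIs were counted in all 2070 day 1 neutrophil-like cells. On day 1 the order of the 5 cell types by *Il1r1* was the reverse of their order by *Il1b*. The *Il1r1* intervals of neutrophil-like, monocyte/macrophage-like and DC-like cells overlapped. The *Il1b* levels of endothelial-like and FAP-like cells are not read as expression, so no pattern is read from this order.

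The accessory chain *Il1rap* was expressed more widely. Its level was 196 (95% CI 184 to 208) CPM in neutrophil-like cells on day 1 and, on day 3, 72.2 (95% CI 53.5 to 95.5), a log2 ratio of -1.42 (95% CI -1.88 to -1.02) that was -0.26 when the libraries were clustered separately. Monocyte/macrophage-like cells had 19.4 (95% CI 18.1 to 20.9) and 8.39 (95% CI 7.56 to 9.28) CPM. In FAP-like cells the level was 7.93 (95% CI 6.71 to 9.31) on day 1, against 15.3 (95% CI 13.8 to 16.9) on day 3, higher on day 3 like *Il1r1*, with a log2 ratio of 0.94 (95% CI 0.67 to 1.23) that lay under 2-fold here and above it in 6 of the 11 alternatives that could be computed for these cells. The share of FAP-like cells with a UMI was 18.4% (95% CI 15.5 to 21.6) on day 1, against 31.3% (95% CI 28.1 to 34.6) on day 3. Below the neutrophil-like cells, the intervals of day 1 endothelial-like, monocyte/macrophage-like and DC-like cells overlapped, and so did the lowest groups.

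*Il1rl1*, the IL-33 receptor gene, was held mostly by FAP-like cells and was far lower there on day 3. They held 97.0% of its UMIs on day 1, at 336 (95% CI 327 to 344) CPM, and 90.5% on day 3, at 18.1 (95% CI 16.5 to 19.9) CPM. The level was 18.5-fold lower on day 3, a log2 ratio of -4.21 (95% CI -4.35 to -4.07). A UMI was found in 38.6% (95% CI 34.8 to 42.5) of cells on day 1 and, on day 3, 15.3% (95% CI 12.9 to 18.0), and the 65 cells with the most held 75.4% of its day 1 UMIs, with up to 282 in a cell, against 48.8% for *Il33* and 33.1% for *Il1r1*. The gene was therefore high in a minority of the day 1 cells. The direction held in each of the 11 alternatives that could be computed for FAP-like cells, but the size did not: the log2 ratio was -1.40 under the stricter call of cells, which kept 144 FAP-like cells of day 1.

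Finer clustering, at a resolution of 1.2, showed where *Il1rl1* was. It split the day 1 FAP-like cells into a cluster of 493 cells, which stayed unnamed and was led by *Il1rl1*, and a cluster of 147 cells led by *Krtdap*. The larger cluster had 407 CPM of *Il1rl1* in 45.0% of its cells, 1002 CPM of *Thbs4*, a marker of tendon cells, and 15.6 of *Pi16*, a gene of the adventitial progenitor-like fibroblasts. The smaller had 60.3 CPM of *Il1rl1* in 18.4% of its cells, 253 of *Thbs4* and 912 of *Pi16*. *Il33* and *Il1r1* had the opposite order, at 143 and 77.9 CPM in the larger cluster and 308 and 115 in the smaller. The 813 cells of day 3 formed 1 cluster with 16.8 CPM of *Il1rl1*, 139.6 of *Il33* and 237 of *Il1r1*, so *Il1rl1* was lower there than in either day 1 cluster and *Il1r1* higher. The FAP marker *Pdgfra* was at 266, 359 and 247 CPM in the larger, smaller and day 3 cluster. Other FAP markers set the clusters apart, with *Col3a1* at 454, 2136 and 9377 CPM and *Dcn* at 3497, 5993 and 1975. Of the tenocyte markers besides *Thbs4*, which was at 241 CPM in the day 3 cluster, *Tnmd* was at 8.66, 11.5 and 17.2 CPM, *Scx* at 3.22, 0.524 and 6.31, *Mkx* at 0.873, 0 and 2.04 and *Fmod* at 42.6, 37.7 and 35.4.

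Summed over FAP-like cells, *Il1rl1* UMIs outnumbered those of *Il1r1* on day 1 and not on day 3, with 393 (95% CI 372 to 416) *Il1rl1* UMIs per 100 *Il1r1* UMIs on day 1 and 7.69 (95% CI 6.96 to 8.47) on day 3. Of 648 FAP-like cells on day 1, 200 had UMIs of both receptors, 302 of *Il1r1* alone and 50 of *Il1rl1* alone, so by share of cells *Il1r1* was ahead on this day too. Of 822 on day 3 these numbers were 119, 643 and 7. *Il33* and *Il1rl1* were found together in 150 cells of day 1 and 74 of day 3. In the other named cell types few cells had an *Il1rl1* UMI. There were 0 of 201 satellite cell/myoblast-like cells, which allows up to 1.49% of cells with a UMI and sets no limit on cells that express the gene, and the 77 UMIs of day 1 endothelial-like cells came from 2 cells, 1 of which held 76. In the unnamed cluster of 31 cells, in which 6 of 7 markers of mast cells and basophils, known carriers of ST2, were raised, 4 of 10 day 1 cells held 22 UMIs, a level of 515 (95% CI 322 to 779) CPM that stood beside that of FAP-like cells, and 0 of 21 day 3 cells had any, which allows up to 14.3% of cells with a UMI.

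**Figure D4:**
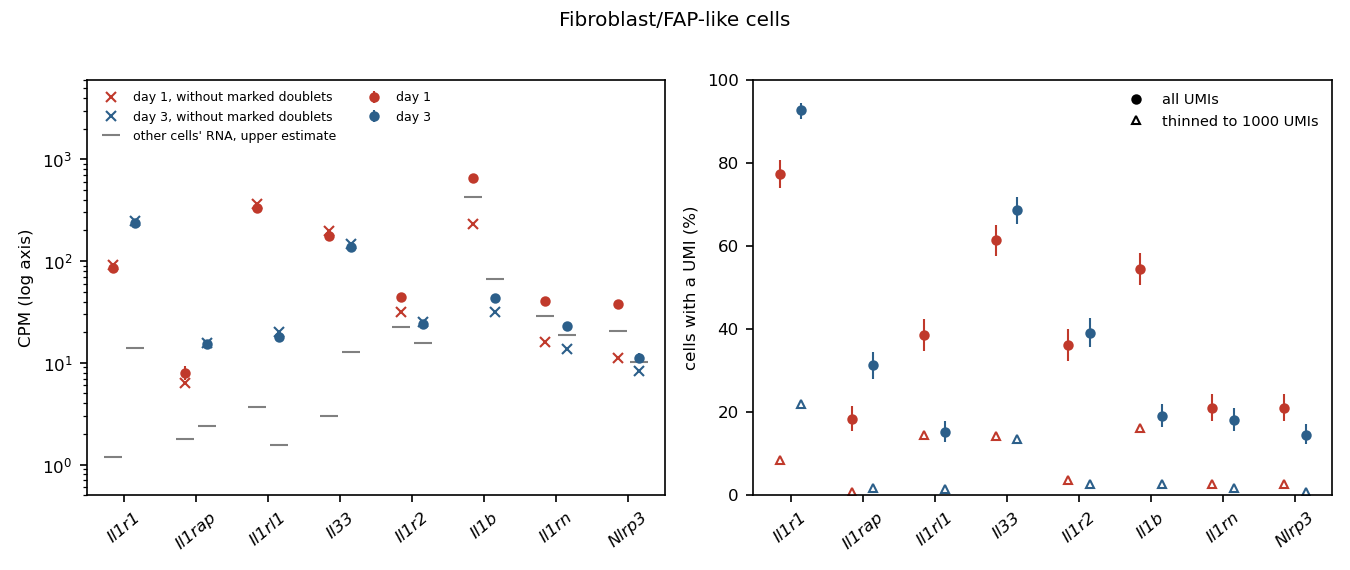
Members in FAP-like cells by day (day 1 red, day 3 blue): the level on the left (CPM, log10 axis; points with 95% exact Poisson intervals, crosses without the likely doublets, grey lines the upper estimate for other cells' RNA) and the percentage of cells with a UMI on the right (points with 95% Clopper-Pearson intervals, triangles after thinning to 1000 UMIs). *Il1rl1* is at 336 CPM on day 1 and 18.1 on day 3 and *Il1r1* at 85.3 and 236, all far above the grey lines, while *Il1b*, *Il1rn* and *Nlrp3* lie within 2-fold of them.

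The decoy receptor gene *Il1r2* was highest in neutrophil-like cells. Its level in neutrophil-like cells was 3008 (95% CI 2961 to 3056) CPM on day 1, with a UMI in 94.8% of cells, and 1436 (95% CI 1347 to 1529) on day 3, with a UMI in 80.6%. These cells held 77.1% of its UMIs on day 1 and 36.5% on day 3. On day 1 the *Retnlg* cluster (3415 CPM) exceeded the *Il23a* cluster (2734), the reverse of *Il1b*. On day 3 the *Il23a* cluster was higher by CPM (1806 against 1237), as for *Il1b*, but not by share of cells (78.3% against 82.6%). As given for *Il1b*, the CPM of the day 3 *Retnlg* cells rests more on deep cells, so no order of these clusters is read on that day. Without the likely doublets the day 3 level of neutrophil-like cells was 2125 CPM, and the day ratio of -1.07 (95% CI -1.16 to -0.97) turned sign when the libraries were clustered separately. Monocyte/macrophage-like cells had 70.8 (95% CI 68.2 to 73.5) and 11.4 (95% CI 10.5 to 12.5) CPM, a log2 ratio of -2.63 (95% CI -2.77 to -2.49). The neutrophil markers of these cells were lower on day 3 as well, as given above, and their part in this ratio was not tested. Without the likely doublets the levels were 38.8 and 10.6 CPM. On day 1 their *Ifitm6* and *Serpinb2* clusters (120.5 and 111 CPM) lay above the *Cd163* and *Ppbp* clusters (24.6 and 19.8). DC-like cells had 114 CPM on day 1 and 105 on day 3, a log2 ratio of -0.12 (95% CI -0.28 to 0.04) whose interval includes 0. It ranged from -0.42 to 0.47 over the alternatives, and without the likely doublets the levels were 79.4 and 109.7 CPM. In FAP-like cells 22.5 of 44.3 CPM on day 1 and 15.7 of 24.0 on day 3 lay within the estimate for other cells' RNA. Without the likely doublets the levels were 31.8 and 25.0 CPM. FAP-like cells held 4.18% of the *Il1r2* UMIs on day 1 and 21.8% on day 3, with a UMI in 36.1% and 39.2% of cells. At the finer clustering the day 1 *Krtdap* cluster had 78.9 CPM in 59.2% of its cells, and the larger day 1 cluster 35.6 CPM in 29.8%. How much of this was RNA of the FAP-like cells themselves was not tested.

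*Nlrp3*, whose protein assembles the inflammasome that activates IL-1β, was highest in neutrophil-like cells on both days, followed by monocyte/macrophage-like cells of day 1. Neutrophil-like cells had 1539 (95% CI 1505 to 1573) CPM on day 1 and 818 (95% CI 752 to 889) on day 3, or 1203 without the likely doublets, and the sign of the ratio (-0.91) turned with separate clustering of the libraries (0.27). Monocyte/macrophage-like cells had 367 (95% CI 361 to 373) and 57.0 (95% CI 54.8 to 59.2) CPM, 6.45-fold less on day 3, with a UMI in 76.2% (95% CI 74.7 to 77.6) and 38.6% (95% CI 36.8 to 40.4) of cells. The log2 ratio of -2.69 (95% CI -2.75 to -2.63) was smaller in size than that of *Il1b*, and it ranged from -3.14 to -2.45 over the alternatives. In the clusters of these cells the level ran from 213 (*Ifitm6*) to 480.5 CPM (*Serpinb2*) on day 1 and from 24.6 (*Gpnmb*) to 150.2 CPM (*Ear2*) on day 3. DC-like cells had 216 and 88.4 CPM, but the sign of that ratio turned under a stricter call of cells, and the day 1 level overlapped that of endothelial-like cells (224 (95% CI 195 to 257)). Of the endothelial-like level, 107.9 CPM lay within the estimate for other cells' RNA. FAP-like cells had 38.1 and 11.2 CPM, and 11.2 and 8.22 without the likely doublets.

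Counted by a rule of size alone, more members were lower than higher on day 3 in every cell type compared, whereas among all genes more were higher. A member was compared when it had at least 100 UMIs over both days in the cell type, and it was counted when its level differed at least 2-fold. In monocyte/macrophage-like cells 8 members could be compared and 7 were lower, all but *Il1r1*, beside 4.82% of the 10667 genes compared, and 0 were higher, beside 27.2%. Their median log2 ratio was -2.53, against 0.45 for all genes. The 7 ran from 5 to 8 over the alternatives, *Il1rap* passing under 2-fold under a stricter call of cells (-0.64) and *Il1f9* turning sign without the likely doublets (0.15). In DC-like cells 4 of 6 were lower (*Il1a*, *Il1b*, *Il1rn*, *Nlrp3*), beside 3.82% of 7299 genes, and 0 were higher, beside 12.8%, with medians of -1.79 and 0.24. The 4 became 1 under a stricter call of cells and at a resolution of 1.2. In FAP-like cells 4 of 9 were lower (*Il1a*, *Il1b*, *Il1rl1*, *Nlrp3*, of which *Il1rl1* alone was far above the estimate for other cells' RNA), beside 7.2% of 11213 genes, and 1 was higher (*Il1r1*), beside 21.2%, with medians of -0.88 and 0.27. The 4 ran from 3 to 6, and without the likely doublets *Nlrp3* was under 2-fold (-0.45). In neutrophil-like cells 3 of 7 were lower (*Il1a*, *Il1rap*, *Il1r2*), beside 9.4% of 4108 genes, and 0 were higher, beside 25.4%, with medians of -0.91 and 0.30. This count was 1 without the likely doublets and 0 when the CPM of single cells were averaged. The members left out were *Il33* and *Il1rl1* in monocyte/macrophage-like cells, these and *Il1r1* in neutrophil-like cells, these and *Il1f9* in DC-like cells, and *Il1f9* in FAP-like cells. The median over all genes was above 0 in each cell type, by 0.24 to 0.45, and a ratio read against it is lower by that amount.

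**Figure D5:**
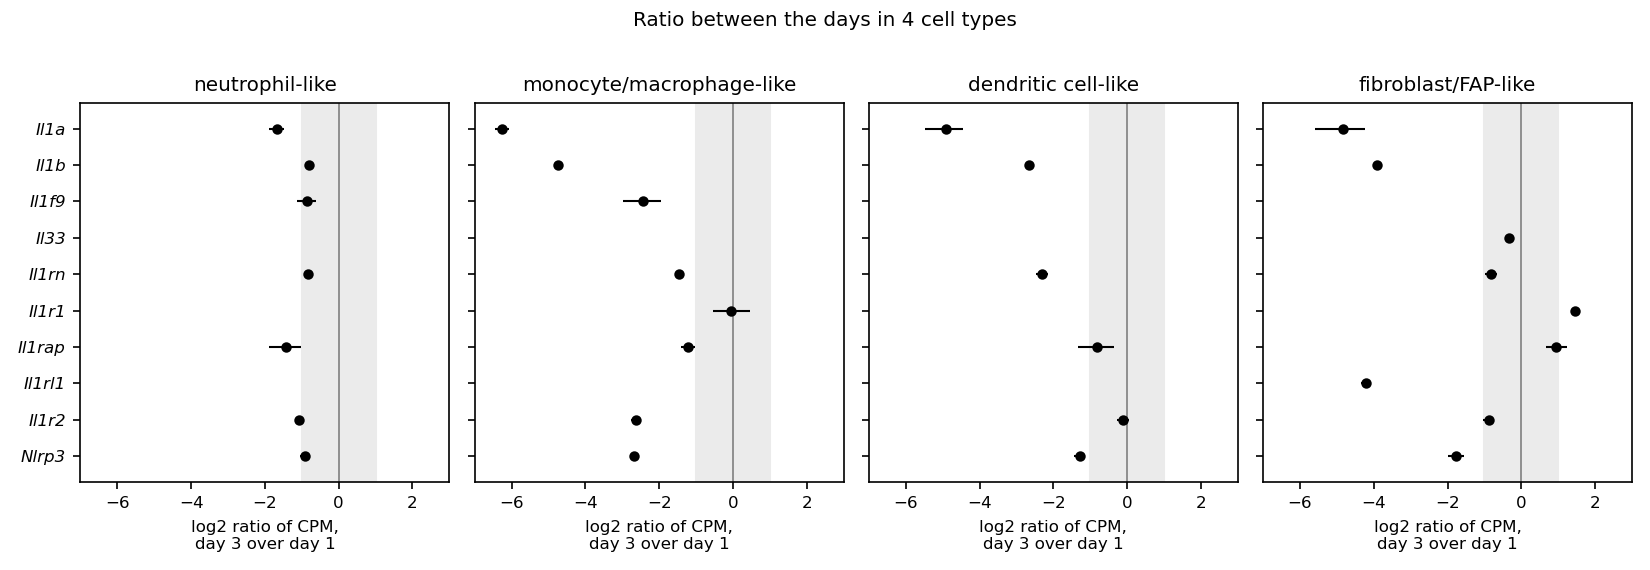
Log2 ratio of CPM, day 3 over day 1, for each member with at least 100 UMIs over both days, by cell type, with 95% exact binomial intervals (counting error); the line marks 0 and the grey band less than 2-fold. *Il1a* (-6.26) and *Il1b* (-4.73) lie farthest to the left among monocyte/macrophage-like cells, and in FAP-like cells *Il1rl1* is at -4.21 and *Il1r1* at 1.47.

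The genes around the members were read from lists of 72 further genes of the pathway, by the same rule. Genes that IL-1 is known to induce in responding cells were lower on day 3 in 14 of the 15 that could be compared in monocyte/macrophage-like cells, with a median log2 ratio of -2.44 beside 0.45 for all genes. The neutrophil attractant *Cxcl5* had the lowest ratio (-4.60), followed by *Il6* (-4.49) and the granulocyte factor *Csf3* (-4.41). The collagenase gene *Mmp13* was the 1 gene that was higher, at 14.2 CPM on day 3 against 0.581 on day 1 (4.58). Of all genes compared in monocyte/macrophage-like cells, 4.82% were lower. In FAP-like cells, which carried the receptor *Il1r1*, 8 of 15 were lower, beside 7.2% of all genes, and 0 higher, with medians of -1.04 and 0.27, led by *Cxcl5* (-3.24, from 2695 to 286 CPM), the stromelysin gene *Mmp3* (-2.58) and *Csf3* (-2.09). The 8 genes that passed were thus lower on the day on which *Il1r1* was higher. In DC-like cells 10 of 14 were lower, beside 3.82%, and 0 higher, with medians of -2.20 and 0.24, led by *Il6* (-3.66), *Cxcl1* (-3.23) and *Csf3* (-2.81). In neutrophil-like cells 5 of 11 were lower, beside 9.4%, with medians of -0.56 and 0.30, led by *Csf3* (-3.32), *Saa3* (-1.57) and *Zc3h12a* (-1.41), and the monocyte attractants *Ccl7* (2.16) and *Ccl2* (1.75) were higher, as were 25.4% of all genes, beside the monocyte/macrophage markers of that group given above. Many of these genes respond to other signals as well, and which signal acted was not tested.

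The other inflammasome genes were counted by the same rule. Of 11 inflammasome and pore genes compared in monocyte/macrophage-like cells, 5 were higher on day 3, beside 27.2% of all genes, and 0 lower, with a median log2 ratio of 0.69 beside 0.45. Among the 5 were the NLRP3 partner *Nek7* (1.86), the sensor *Nlrp1b* (1.58, at 2.74 CPM on day 3) and the caspase-1 gene *Casp1* (1.42, from 23.6 to 63.3 CPM). In FAP-like cells 5 of 9 were higher, beside 21.2%, and 0 lower, with medians of 1.29 and 0.27, led by the ATP receptor *P2rx7* (2.32), the adaptor *Pycard* (1.58) and *Casp1* (1.57), and in DC-like cells 3 of 8, beside 12.8% and with medians of 0.85 and 0.24, *Nek7* (1.68), the DNA sensor *Aim2* (1.34) and *Casp4* (1.05). Monocyte/macrophage markers in FAP-like cells summed to 436 CPM on day 1 and 1260.0 on day 3, and their part in this count was not tested. In neutrophil-like cells 0 of 6 were higher, beside 25.4%, and 1 was lower, *Txnip* (-1.15), beside 9.4%. Nothing is read from these 2 counts.

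Genes of the signalling chain below IL-1R1 and its brakes differed little: 0 of 18 passed 2-fold in FAP-like cells, where 7.2% of all genes were lower and 21.2% higher, and the median log2 ratio over the list was 0.06 beside 0.27. Of 18 in monocyte/macrophage-like cells, *Nfkbia* (-2.46) and *Nfkb1* (-1.57), both of which NF-κB itself induces, were lower and *Tab1* (1.44) was higher, beside 4.82% and 27.2% of all genes. In neutrophil-like cells *Nfkbia* (-1.47) and *Nfkb1* (-1.03) were the 2 lower genes of 13, beside 9.4%, and in DC-like cells *Nfkbia* (-1.72) and the brake *Irak3* (-1.07) were the 2 of 16, beside 3.82%. Among other family genes, *Il18bp*, which encodes the soluble trap of IL-18, was higher in monocyte/macrophage-like (2.94, from 1.89 to 14.6 CPM) and FAP-like cells (1.91), *Il18* in FAP-like (1.30) and DC-like cells (1.51), and the IL-18 receptor chain *Il18rap* was lower in monocyte/macrophage-like (-1.23) and higher in DC-like cells (1.71). These were 2 of 4, 2 of 3 and 2 of 2 genes compared in monocyte/macrophage-like, FAP-like and DC-like cells, and 0 of 1 passed in neutrophil-like cells. Of the proteases that cut the cytokines, *Ctss* was higher in FAP-like cells (1.79, 1 of 4) and in neutrophil-like cells (2.56), where *Capns1* (1.37) and *Capn1* (-1.01) made up the 3 of 3, and 0 of 5 and 0 of 4 passed in monocyte/macrophage-like and DC-like cells. Of the genes of ST2-bearing lymphocytes and mast cells, *Areg*, a growth factor that monocytes also express, was lower in monocyte/macrophage-like (-4.15), DC-like (-1.74) and FAP-like cells (-1.55), as the 1 of 2 compared in each, and no gene of this list could be compared in neutrophil-like cells (0 of 7). At most 5 genes were compared in any of these last 3 lists, and with lower and higher shares over all genes of 3.82% to 9.4% and 12.8% to 27.2%, nothing is read from their counts.

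For each member, the genes with the most similar pattern over the 10 groups of cell type and day were found among 10387 genes by Pearson correlation of log2(CPM + 1), given in parentheses. The 10 points share 2 libraries and 6 cell types, so the values describe patterns and carry no p. *Il1b* was most like *Bcl2a1d* (0.988), *Cd14* (0.983) and *Clec4n* (0.981), *Il1a* like *Ehd1* (0.982) and *Rffl* (0.975), and *Il1f9* like *Mirt2* (0.989), *Amer2* (0.988) and *Ptgs2os2* (0.987). *Il33* was most like *Plekhf1* (0.967), *Cp* (0.959) and *Insyn1* (0.95), and *Il1r1* like *Tcf7l1* (0.991), *Col8a1* (0.989) and *St5* (0.987). *Il1rl1* had the least close neighbours, *Lrrc32* (0.947), *Wnt2* (0.910) and *Cpne8* (0.907). *Il1rn* was most like the chemokine receptor *Ccr1* (0.992), followed by *Clec4d* (0.990) and *Bcl2a1b* (0.990), and *Nlrp3* was most like *Clec4e* (0.995), a receptor of dying cells, followed by *Ccr1* (0.991) and *Samsn1* (0.989), so *Ccr1* stood near both. *Il1r2* was most like *Ltb* (0.980) and *Rock1* (0.976), and *Il1rap* like *Khnyn* (0.981), *Phf1* (0.975) and *Gm32031* (0.975).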

How the data were processed

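The deposited counts are UMI counts per gene and barcode for every listed barcode, made by the authors from 10x Genomics 3′ libraries with Cell Ranger (5.0.0 and mm10 in the submitters' processing notes; the file header names version 4), without normalization or a call of cells. The 7367 (day 1) and 6640 (day 3) barcodes highest in UMIs were kept as cells if they had at least 1000 UMIs, at least 200 genes and at most 7.5% mitochondrial UMIs. Median UMIs per kept cell were 9389 and 14548. Other samples were not analysed here.

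The members, gene lists and alternatives were chosen with earlier results of these data known. The libraries were clustered jointly after SCTransform (Seurat 5.3.0 with sctransform 0.4.2 under R 4.3.3), in which the S minus G2M score difference and the percentage of mitochondrial UMIs were regressed out. Clustering used 10 PCs of 3000 variable features at a resolution of 0.8. The members, markers and pathway genes (192 genes) were kept out of these features. Clusters were named for the marker list that scored highest after each marker was scaled from its lowest to its highest cluster. This replaced a mean z-score that had been planned, after its names were seen, and the z-score was run as an added alternative. It called the *Ifitm6* cluster neutrophil-like and left the *Serpinb2*, DC-like and main day 3 FAP-like clusters unnamed. Doublets were kept. Scrublet in scanpy 1.11.5 marked 3 and 1 cells by its automatic threshold, too few to have worked, so the 363 and 171 cells with the highest scores (0.8% per 1000 cells) were called likely doublets and removed in an alternative.

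CPM are UMIs summed over cells and have exact Poisson intervals, and Clopper-Pearson intervals were computed for shares. For log2 ratios 0.5 was added to both counts, and their intervals come from the exact binomial split of the UMIs between the days. All intervals are at 95%. A count of 0 was taken to allow up to 3 counts. Shares were also thinned to 1000 UMIs per cell. RNA of other cells was read from barcodes of at most 100 UMIs and scaled to *Col1a1*, *Col1a2*, *Col3a1* and *Dcn* in blood cells, or to *S100a8*, *S100a9*, *C1qa*, *C1qb* and *C1qc* in the others, as an upper estimate. The named genes are the members, at most 3 genes per pathway list and direction with the largest ratios among those of at least 100 UMIs, and the 3 genes of at least 500 UMIs most like each member, 2 of which are not reported here. Ratios were also computed on simulated data, and no result of that is given here. Alternatives changed the call of cells, the mitochondrial limit, doublets, naming, resolution, normalization, joint clustering, the averaging of CPM, other cells' RNA, the UMI minimum and the scaling. Python 3.11.15, numpy 2.4.6, scipy 1.17.1 and pandas 2.3.3 were used. All 10 members matched RefSeq promoter windows, 16 in all, and gene positions are those of GENCODE, matched by gene ID.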

Additional observations from a re-analysis of the deposited data

How the results depend on the processing

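Of 335 values of the 30 single ratios under 12 alternatives, 318 kept their sign and 275 also their side of 2-fold, and 4 values of ratios that had passed 2-fold changed sign. These were *Il1r2* in neutrophil-like cells with each library clustered on its own (0.22), *Il1f9* in monocyte/macrophage-like cells with likely doublets removed (0.15), and *Nlrp3* in DC-like cells under the stricter call of cells (0.10) and at a resolution of 1.2 (0.15). The count of members lower on day 3 in neutrophil-like cells, 3, was 1 with likely doublets removed, with the highest marker score of each cell, with log-normalization, with each library clustered on its own and with naming by the mean z-score (added after seeing the data), 0 with the mean of the CPM of each cell, and 7 when centred on the median ratio. With each library clustered on its own the 1 was not among those 3 (*Il1a* at -0.46, *Il1rap* at -0.26 and *Il1r2* at 0.22). In DC-like cells the count of 4 was 1 under the stricter call and at a resolution of 1.2. In FAP-like cells the 1 higher member became 2 (*Il1r1* and *Il1rap*) under the stricter call, with likely doublets removed, at a resolution of 1.2, with each library clustered on its own, with the mean of the CPM of each cell and with other cells' RNA subtracted. The count of lower members in monocyte/macrophage-like cells, 7, ran from 5 to 8. The cause of these changes was not tested. Neutrophil-like cells could not be computed under the stricter call, which left 0 of them on day 3, nor DC-like and FAP-like cells with naming by the z-score, which left fewer than 50 on a day, and values left with under 3 counts after subtraction were dropped. No paired analysis was possible because each day had 1 library of different pooled mice. Depth limits the values of few UMIs, such as *Il1a* in day 3 FAP-like (21) and DC-like cells (34), *Il1f9* in day 3 monocyte/macrophage-like cells (40) and *Il1rap* in day 3 neutrophil-like cells (49).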
